A study of Mus musculus with 12 samples.

Results

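The genes described here are 31 mouse genes of the Fanconi pathway and of homologous recombination, chosen by name. Of the 31, 27 had a named probe set on the array and 25 passed a filter on low signal, out of 19494 named and 14620 tested genes. Fancc and Rad51c had a probe set but lay below the filter, and Xrcc2, Rad54b, Rbbp8 and Atrip were not analysed here. Each gene had 1 value per array, a log2 signal normalised between arrays, which allows a gene to be compared between arrays but not with another gene. The study measured RNA of haematopoietic stem cells (HSC) and multipotent progenitors (MPP) isolated by flow cytometry from marrow of untreated mice in steady state. The KO mice were Nfat5 fl/fl and carried Vav-Cre, and the WT mice were Nfat5 +/+ and carried Vav-Cre too, so that the recombinase was present in every group. The 4 groups were KO HSC, WT HSC, KO MPP and WT MPP, with 3 arrays each, from KO mice 2, 11 and 70 and WT mice 3, 12 and 64. Each mouse gave both an HSC and an MPP array, and the mice are the replicates.

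The Fanconi pathway repairs interstrand crosslinks, in which a chemical bond ties the strands of the DNA helix together and blocks the replication fork. A nuclear core complex attaches ubiquitin to FANCD2 and FANCI, nucleases open the crosslink, and BRCA1, BRCA2, PALB2 and their partners then rebuild the broken chromosome from the sister chromatid. Because the sister is needed as a template, this kind of repair works mainly in cells that replicate their DNA. Inherited loss of the pathway causes Fanconi anaemia, in which blood stem cells are lost and the bone marrow fails. NFAT5 is a transcription factor best known for switching on genes that protect cells against high salt. Vav-Cre is active across the blood system, so its deletion is not limited to the stem cells.

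The labels were checked on the arrays before the repair genes were compared. Nfat5 had log2 signals of 7.34 to 7.89 in KO HSC, against 8.27 to 8.99 in WT HSC, and of 6.99 to 7.45 in KO MPP, against 7.82 to 8.28 in WT MPP. It was thus lower on each KO array than on each WT array of the same population, by 0.91 in HSC and 0.87 in MPP on the log2 scale. Where its probe set lies relative to the deleted part was not analysed here. Slamf1 (CD150), used to sort HSC, had signals of 7.14 or more on the HSC arrays and of 6.02 or less on the MPP arrays, and Cd48, used to sort MPP, showed the reverse. Flt3, a receptor of progenitors that was not part of the sort, had signals of 6.88 or less in HSC and of 8.64 or more in MPP. Across genes, the HSC array of KO mouse 2 scattered more about its group (SD 0.438) than the remaining 11 arrays (0.276 to 0.378). Array medians were 5.81 to 5.91, and precision is limited by having 3 arrays a group.

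Promoters of 5 genes on which the results turn are printed here to show which letter strings lie near their starts. They come from RefSeq (assembly GRCm38.p6), where 22 of the 27 genes with a probe set had a window of 250 bases before and 50 bases after an annotated start. Each is given 5′ to 3′ on the gene's own strand, in lower case with the matches in capitals. The windows are those of Brca1 at chr11:101551906-101552205 (minus strand), Bard1 at chr1:71102923-71103222 (minus strand), Fanci at chr7:79392088-79392387 (plus strand), Mms22l at chr4:24496201-24496500 (plus strand) and Rad51b at chr12:79297032-79297331 (plus strand, the first of its windows).
Brca1: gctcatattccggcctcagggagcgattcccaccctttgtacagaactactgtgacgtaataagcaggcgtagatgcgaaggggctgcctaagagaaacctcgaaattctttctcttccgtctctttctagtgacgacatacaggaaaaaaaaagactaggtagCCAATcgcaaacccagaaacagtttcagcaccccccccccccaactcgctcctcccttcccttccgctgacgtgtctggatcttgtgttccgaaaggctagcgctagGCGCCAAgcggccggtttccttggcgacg
Bard1: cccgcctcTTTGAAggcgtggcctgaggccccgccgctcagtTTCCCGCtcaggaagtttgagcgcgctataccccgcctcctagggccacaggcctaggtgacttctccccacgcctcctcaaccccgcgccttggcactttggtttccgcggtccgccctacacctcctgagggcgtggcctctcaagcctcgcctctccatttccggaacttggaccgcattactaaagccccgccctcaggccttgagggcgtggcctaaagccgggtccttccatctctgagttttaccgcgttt
Fanci: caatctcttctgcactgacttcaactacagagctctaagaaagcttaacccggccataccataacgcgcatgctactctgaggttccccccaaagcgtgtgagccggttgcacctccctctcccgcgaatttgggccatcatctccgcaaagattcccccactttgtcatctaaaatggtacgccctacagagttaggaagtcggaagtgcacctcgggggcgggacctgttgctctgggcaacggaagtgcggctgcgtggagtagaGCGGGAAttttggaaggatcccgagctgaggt
Mms22l: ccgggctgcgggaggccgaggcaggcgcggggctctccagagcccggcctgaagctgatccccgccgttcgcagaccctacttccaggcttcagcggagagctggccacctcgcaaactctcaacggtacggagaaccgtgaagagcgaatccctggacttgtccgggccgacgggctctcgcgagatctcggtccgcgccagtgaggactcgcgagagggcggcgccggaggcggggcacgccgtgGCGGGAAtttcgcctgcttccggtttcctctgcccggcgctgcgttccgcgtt
Rad51b: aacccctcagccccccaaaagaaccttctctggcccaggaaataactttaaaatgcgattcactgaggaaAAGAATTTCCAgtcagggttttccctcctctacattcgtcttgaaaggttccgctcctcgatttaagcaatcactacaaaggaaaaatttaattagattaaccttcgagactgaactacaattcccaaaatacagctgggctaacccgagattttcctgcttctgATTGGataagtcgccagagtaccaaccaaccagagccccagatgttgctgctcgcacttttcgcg

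Strings of 4 kinds were searched on both strands, and none of the capitals in these 5 windows overlap. An E2F string was TTCCCGC or TTGGCGC or TTCGCGC or TTGCCGC, forms that the E2F factors of the replication programme can bind. The other strings were TTTGAA, the core of the cell-cycle homology region of mitotic genes, CCAAT, and the tonicity element that NFAT5 binds. The Brca1 window holds an E2F string at bases 22 to 28 after the start and a CCAAT at bases 86 to 82 before it, with the annotated start counted as base 1. Bard1 holds an E2F string at bases 208 to 202 and TTTGAA at bases 242 to 237, both before the start. In Fanci the E2F string lies at bases 19 to 25 after the start, and in Mms22l it runs over the start itself. Rad51b has no E2F string in this window, but a match to the tonicity element at bases 180 to 170 before the start. It also has a CCAAT, read on the other strand, at bases 15 to 11 before the start. The other window of Rad51b, not printed, holds TTTGAA at bases 8 to 13 after its start. Rad54l, which was lower in HSC but is not printed, has no E2F string in its windows. An E2F string was present in 12 of the 22 members with a window (54.5%), against 9.57% of all 32851 windows and 10.9% of all 27025 genes with a window. It was present in 4 of the 6 members with a window that were lower in HSC, and in 7 of 14 tested members that were not called. It was also present in 17 of 25 DNA replication genes and in 2 of 22 mitosis genes. TTTGAA was present in 2 of 22 members, against 20.2% of all genes with a window, and in 16 of 22 mitosis genes. CCAAT was present in 14 of 22 members, against 41.1% of all genes with a window. The tonicity element was matched in 1 of 22 members, Rad51b, against 5.74% of all genes with a window. A match describes letters in a window and is not a bound site.

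HSC were compared with MPP first, over both genotypes, since every mouse gave both populations. Of the 25 members tested, 7 were lower in HSC than in MPP at an adjusted p under 0.05 by limma, and 0 were higher (1, Fance, at an unadjusted p under 0.05). They were Fancd2, Fanci, Brca1, Bard1, Rad51b, Rad54l and Mms22l. Across all 14620 genes, 2.92% passed as lower in HSC and 1.93% as higher. The median log2 difference, HSC minus MPP, was -0.53 over the 25 members and 0.047 over all genes, and 19 of 25 members had a difference below 0, against 42.8% of all genes. In sorted bulk RNA, fewer cells that express a gene and less RNA of it per cell cannot be told apart. Fancd2 is counted among the 7, although its mean signal in HSC lay below the filter value, so that it passed the filter only through MPP. The call of lower in HSC fell on Fanci and, with that limit, on Fancd2, on 2 of 3 of BRCA1 and its partners, 1 of 3 genes among Rad51b, Rad51d and Xrcc3, Rad54l and 1 of 2 fork factors. It fell on 0 of 7 core complex genes, 0 of 2 BRCA2 loaders, 0 of 2 end resection genes, 0 of 2 junction genes and not on Atr.

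**Figure D1:**
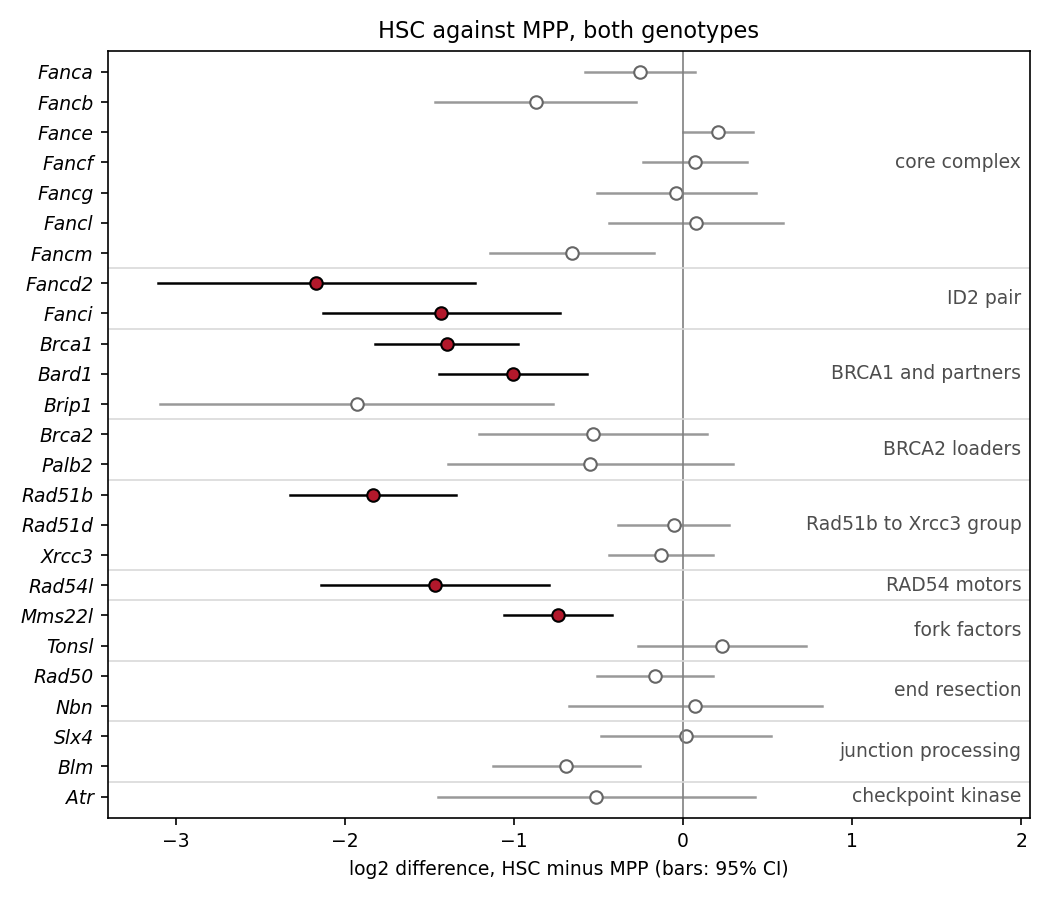
Log2 difference in signal (HSC minus MPP, over both genotypes) of the 25 members tested, grouped by role; points are limma estimates over 12 arrays, bars their unadjusted 95% confidence intervals, and filled points mark the 7 members with an adjusted p under 0.05. The filled points lie between -2.17 and -0.74, while the core complex genes lie between -0.87 and 0.21.

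The count differed with the mouse left out. When both arrays of a mouse were left out, the members that passed numbered 5 without mouse 2, 8 without mouse 3, 2 without mouse 11, 2 without mouse 12, 4 without mouse 64 and 3 without mouse 70. Over all genes, the lower calls numbered 427 in the full set and 224 to 318 without a mouse. Brca1 and Rad51b passed in each of these sets. With the mouse as a block, 5 members passed, against 2.25% of all genes called lower. Bard1 (adjusted p = 0.0678) and Mms22l (adjusted p = 0.0675) did not pass by limma. Fancd2, which passed the filter only through MPP, is in this block count and in those without mouse 3 and without mouse 70. Fanci missed without the HSC array of KO mouse 2 alone (adjusted p = 0.0512, limma).

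FANCD2 and FANCI form the clamp that the core complex marks with ubiquitin, the central step of the pathway. Fancd2 had a lowest, median and highest signal of 3.96, 4.32 and 5.62 over the 6 HSC arrays, against 4.81, 6.90 and 7.46 over the 6 MPP arrays. On 5 of the 6 HSC arrays it thus read below 4.96, the mean level at which the filter was set, and the MPP array of KO mouse 70 (4.81) read within the HSC range. The fitted difference was -2.17 (SE 0.43, adjusted p = 0.0149), and each of the 6 mice had less in HSC. Since Fancd2 was tested only because of its MPP signal, no fold is given for it and its call is not independent of the filter. Fanci had a lowest, median and highest signal of 5.84, 7.12 and 7.59 in HSC, against 7.90, 8.30 and 8.59 in MPP. Its groups did not overlap, and the difference was -1.43 (SE 0.32, adjusted p = 0.0263), a 2.69-fold lower signal in HSC.

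None of the 7 core complex genes tested passed by limma (0 of 7), and 3 had an unadjusted p under 0.05 (Fancb, Fancm and Fance). Over all members 12 of 25 did, against 19.6% of all genes. Fancl, the ubiquitin ligase itself, had a difference of 0.077 with a 95% confidence interval of -0.44 to 0.59. Fancf (0.070) and Fancg (-0.040), scaffold subunits, and Fanca (-0.25) had intervals that included 0 as well. Fance, which bridges the complex to FANCD2, was the member of this group with a positive difference at an unadjusted p under 0.05 (0.21, adjusted p = 0.254). Fancb, a partner of FANCL in the catalytic module, had -0.87 (SE 0.27, adjusted p = 0.103), and Fancm, a DNA motor that holds the complex at stalled forks, had -0.66 (SE 0.22, adjusted p = 0.128). Fancb was lower in HSC in 5 of 6 mice and Fancm in 5 of 6.

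BRCA1 and BARD1 together form a ubiquitin ligase that steers broken ends towards recombination. Brca1 had a lowest, median and highest signal of 5.54, 5.81 and 6.73 in HSC, against 7.13, 7.40 and 7.50 in MPP. The groups did not overlap, the MPP arrays lay within a narrow band, and the HSC array of KO mouse 70 was the highest HSC array. The difference was -1.40 (SE 0.19, adjusted p = 0.00205), a 2.64-fold lower signal in HSC, and it was below 0 in 6 of 6 mice. Bard1 had a lowest, median and highest signal of 5.14, 6.18 and 6.45 in HSC, against 6.69, 6.96 and 7.46 in MPP. These groups did not overlap either, and the difference was -1.01 (SE 0.20, adjusted p = 0.0151), a 2.01-fold lower signal in HSC. Brip1, a helicase that binds BRCA1, had a larger estimate that did not pass, at -1.93 (SE 0.53, adjusted p = 0.0667). Its signal was 6.96 to 9.48 in HSC and 10.36 to 10.92 on 5 of the 6 MPP arrays, whereas the MPP array of WT mouse 3 read 8.27. Brip1 passed when mouse 3 was left out.

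PALB2 joins BRCA1 to BRCA2, a large protein of homologous recombination that suppresses breast and ovarian tumours. Neither gene passed: Brca2 had -0.53 (95% confidence interval -1.20 to 0.14) and Palb2 had -0.55 (-1.39 to 0.29). The proteins of Rad51b, Rad51c, Rad51d and Xrcc3 form small complexes that assist recombination. Rad51b had a lowest, median and highest signal of 4.77, 5.41 and 6.18 in HSC, against 6.45, 7.16 and 8.19 in MPP. The groups did not overlap, and the difference was -1.83 (SE 0.22, adjusted p = 0.000890), a 3.57-fold lower signal in HSC. The other genes of these complexes that were tested had small estimates, of -0.055 for Rad51d (95% confidence interval -0.38 to 0.27) and of -0.13 for Xrcc3 (-0.44 to 0.18). Rad51c lay below the filter, with signals of 3.57 to 4.69 in HSC, against 4.92 to 6.62 in MPP. With no filter on low values, where 8 members passed, it had a difference of -1.52 (SE 0.27, adjusted p = 0.0114). Fancc, the other member below the filter, had -0.62 (SE 0.40, adjusted p = 0.439) in that fit.

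RAD54L is a motor protein that acts while the broken strand invades its template. Rad54l had a lowest, median and highest signal of 5.66, 5.87 and 6.22 in HSC, against 6.61, 7.15 and 8.84 in MPP. The groups did not overlap, the MPP array of WT mouse 64 was the highest, and the difference was -1.47 (SE 0.31, adjusted p = 0.0195), a 2.76-fold lower signal in HSC. MMS22L and TONSL form a complex that acts in recombination at stalled replication forks. Mms22l was lower in HSC by a difference of -0.74 (SE 0.14, adjusted p = 0.0148) over both genotypes, and WT HSC arrays overlapped with MPP arrays. Tonsl, its partner, had 0.23 (95% confidence interval -0.27 to 0.73). Of the 25 members, 5 did not overlap between HSC and MPP and were lower in HSC (Fanci, Brca1, Bard1, Rad51b and Rad54l), against 2.36% of all genes. Lower signals in HSC in each of the 6 mice were found for 6 of 25, against 6.19% of all genes. They were these 5 and Fancd2, which passed the filter only through MPP.

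**Figure D2:**
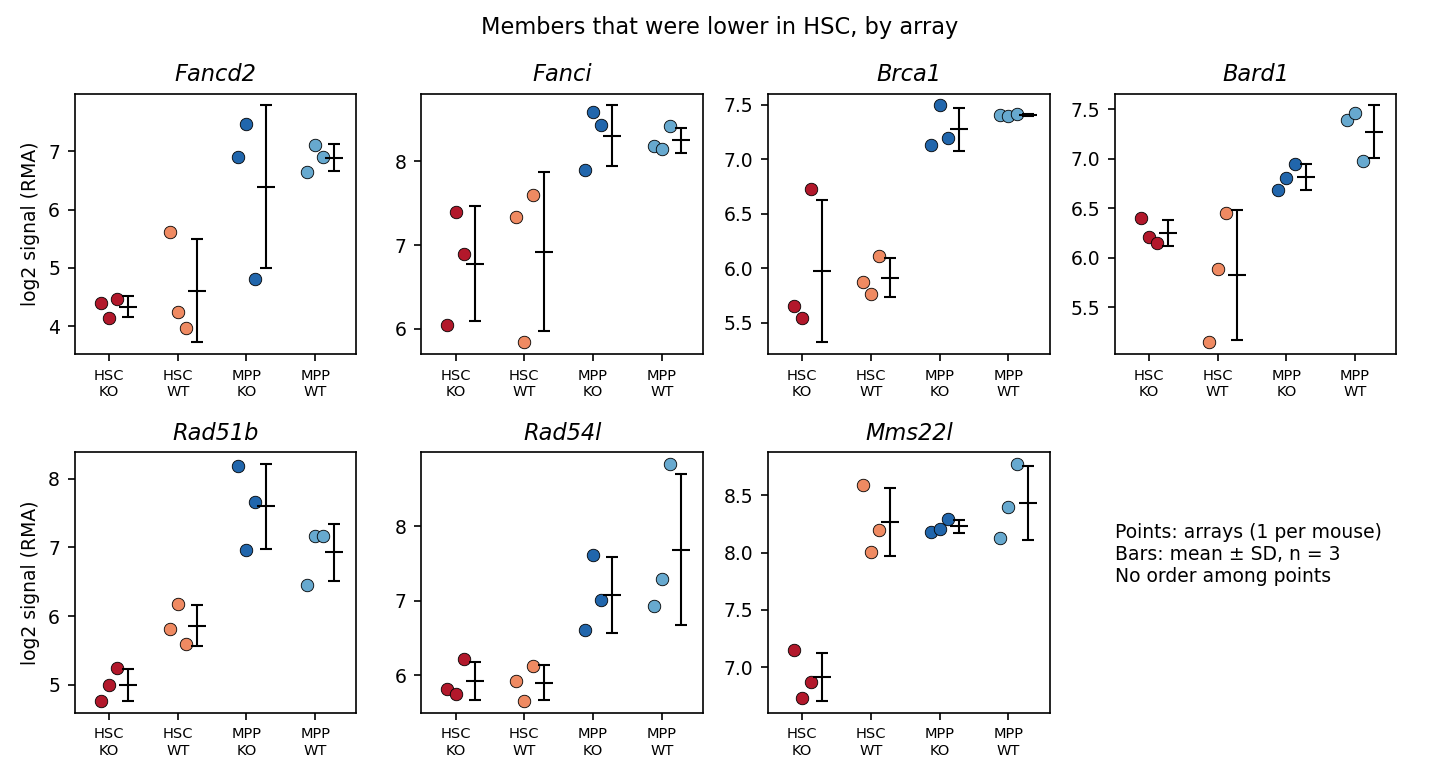
Log2 signal (RMA) on each array of the 7 members that were lower in HSC, in KO HSC, WT HSC, KO MPP and WT MPP; points are arrays (1 per mouse), and bars give the mean and SD of 3 arrays. Fanci, Brca1, Bard1, Rad51b and Rad54l show no overlap between the HSC and MPP arrays, Fancd2 has 1 KO MPP array at 4.81, and Mms22l has WT HSC arrays at 8.004 to 8.59, within the range of the MPP arrays or close to it.

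The remaining roles gave no call in the full set of arrays. RAD50 and NBN belong to the complex that first binds and trims a broken end, and they had differences of -0.17 for Rad50 (95% confidence interval -0.51 to 0.18) and 0.070 for Nbn (-0.68 to 0.82). Slx4, a scaffold for the nucleases that cut branched DNA, had 0.019 (-0.48 to 0.52). Blm, the helicase that dissolves crossed strands, had -0.69 (SE 0.20, adjusted p = 0.0788) and was lower in HSC in 5 of 6 mice. Like Brip1, it passed when mouse 3 was left out. Atr, the kinase that signals stalled forks, had -0.51 (-1.45 to 0.42). Its signal on the MPP array of KO mouse 70 was 7.94, against 5.31 to 6.42 on the other 5 MPP arrays.

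Within each genotype the comparison of HSC with MPP has fewer arrays. In KO mice, 3 of 25 members were lower in HSC (Rad51b, Mms22l and Brca1) and 0 were higher, against 0.739% of all genes called lower and 0.52% called higher. In WT mice, 2 of 25 were lower (Brca1 and Bard1) and 0 were higher, against 1.32% and 0.746% of all genes. In KO, the members' median was -0.51, with 19 of 25 below 0 against 42.9% of all genes. In WT, it was -0.23, with 21 of 25 below 0 against 45.8% of all genes. The estimate was below 0 in both genotypes for 16 of 25 members, against 27.6% of all genes. Groups that did not overlap and were lower in HSC numbered 11 of 25 in KO, against 7.33% of all genes, and 6 of 25 in WT, against 10.3% of all genes. The 11 in KO included the 7 members called over both genotypes, plus Fancb, Fancm, Brip1 and Blm. The 6 in WT were Fancd2, Fanci, Brca1, Bard1, Rad51b and Rad54l. Fancd2, which passed the filter only through MPP, is in both counts. In the other direction, Fance was higher on each WT HSC array than on each WT MPP array (0.33, unadjusted p = 0.0303, limma).

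Brca1 had signals of 5.65, 5.54 and 6.73 in KO HSC (mice 2, 11 and 70), against 7.13, 7.50 and 7.20 in KO MPP. In WT it had 5.87, 5.76 and 6.11 in HSC (mice 3, 12 and 64), against 7.40, 7.40 and 7.42 in MPP. It was thus lower in HSC in both genotypes, by -1.30 in KO (SE 0.27, adjusted p = 0.0494) and by -1.49 in WT (SE 0.27, adjusted p = 0.0200). Bard1 had signals of 6.40, 6.21 and 6.15 in KO HSC, against 6.69, 6.81 and 6.95 in KO MPP. In WT it had 5.14, 5.88 and 6.45 in HSC, against 7.39, 7.46 and 6.97 in MPP. The groups did not overlap in either genotype, and the difference was -0.56 in KO (SE 0.28, adjusted p = 0.453) and -1.45 in WT (SE 0.28, adjusted p = 0.0270). Rad54l, with the third lowest p in WT, had -1.15 in KO (SE 0.43, adjusted p = 0.301) and -1.78 in WT (SE 0.43, adjusted p = 0.0688).

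These within-genotype calls were sensitive to whether arrays were paired by mouse. With the mouse as a block, 1 member passed in KO, Rad51b (adjusted p = 0.0283), against 0.451% of all genes called lower. Mms22l (adjusted p = 0.0744) and Brca1 (adjusted p = 0.117) did not pass by limma. In WT, 0 members passed with the block, against 0.725% of all genes called lower. The adjusted p was 0.0685 for Brca1 and 0.105 for Bard1 by limma. Rad51b passed in KO without mouse 2, 11 or 70, whereas Mms22l did not pass without any of these mice and Brca1 passed only without mouse 70. In WT, Bard1 passed without mouse 64 and Brca1 did not, Bard1 did not pass without mouse 11 or 70 while Brca1 did, and neither passed without mouse 3 or mouse 12.

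The effect of Nfat5 deficiency was compared within each population. Nfat5 itself did not pass in these tests, with an adjusted p of 0.566 in HSC and of 0.99991 in MPP by limma. No member passed in HSC (0 of 25, with 0 of all 14620 genes), and 2 of 25 had an unadjusted p under 0.05, against 919 genes or 6.29% over all genes. They were Mms22l and Rad51b, both with lower signals in KO HSC. The median difference, KO minus WT, was 0.032 over the members and 0.021 over all genes. Groups that did not overlap and were lower in KO numbered 3 of 25 (Mms22l, Rad51b and Fance), against 3.72% of all genes, and 0 of 25 were higher, against 5.15%. In MPP, 0 of 25 members and 0 of all genes passed by limma, 0 of 25 members had an unadjusted p under 0.05, against 466 genes or 3.19%, and the median was 0.033. Bard1 was the only member whose MPP groups did not overlap, lower in KO, against 4.66% of all genes.

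Mms22l had signals of 7.15, 6.73 and 6.87 in KO HSC, against 8.59, 8.004 and 8.20 in WT HSC. The KO HSC arrays were separate from the other 9, since Mms22l had 8.18, 8.21 and 8.30 in KO MPP, against 8.13, 8.40 and 8.77 in WT MPP. The difference between KO and WT was -1.35 in HSC (SE 0.20, adjusted p = 0.295) and -0.20 in MPP (95% confidence interval -0.66 to 0.25). Between HSC and MPP it was -1.31 in KO (SE 0.20, adjusted p = 0.0128) and -0.17 in WT (95% confidence interval -0.62 to 0.29). The interaction, which is the difference between these 2 genotypes in HSC minus that in MPP, was -1.15 (SE 0.29, unadjusted p = 0.00236, adjusted p = 0.884).

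Rad51b had signals of 4.77, 4.99 and 5.24 in KO HSC, against 5.81, 6.18 and 5.59 in WT HSC. In MPP the order was the other way on average, with 8.19, 6.96 and 7.66 in KO MPP, against 6.45, 7.17 and 7.16 in WT MPP, and these groups overlapped. The difference between KO and WT was -0.86 in HSC (SE 0.31, adjusted p = 0.728) and 0.67 in MPP (SE 0.31, adjusted p = 0.99991). Between HSC and MPP it was -2.60 in KO (SE 0.31, adjusted p = 0.00308) and -1.07 in WT (SE 0.31, adjusted p = 0.139). The interaction was -1.53 (SE 0.44, unadjusted p = 0.00543, adjusted p = 0.884). Bard1 was the other member with an interaction at an unadjusted p under 0.05, at 0.89 (SE 0.40), and 3 of 25 such members compare with 4.5% of all genes. None of the 25 members and 0 of all genes passed the interaction test by limma, against 658 genes at an unadjusted p under 0.05.

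**Figure D3:**
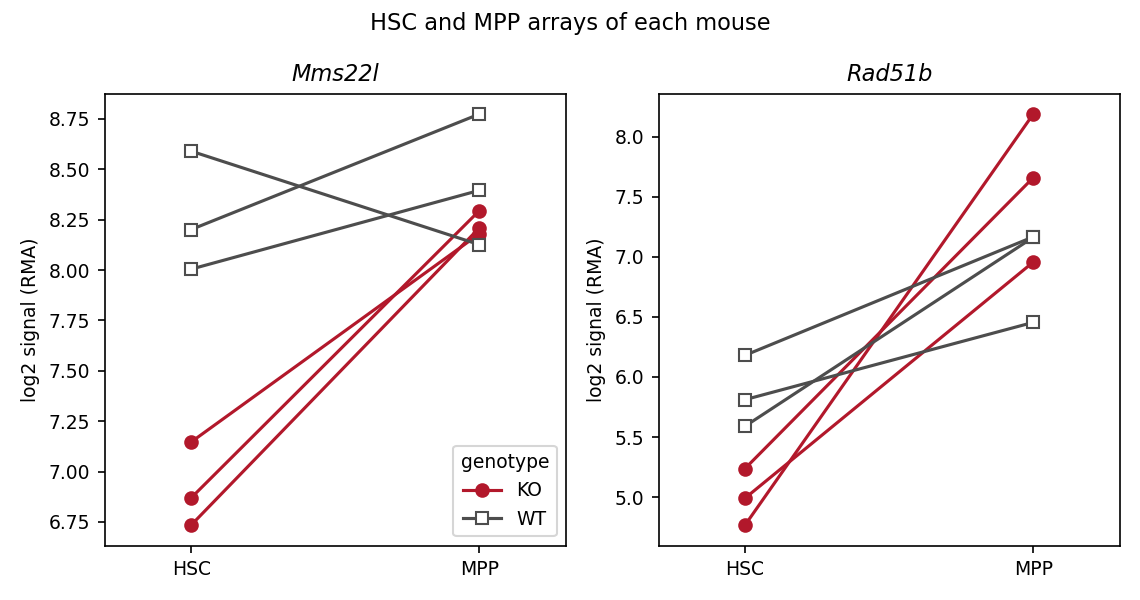
Log2 signal (RMA) of Mms22l and Rad51b on the HSC and MPP arrays of each mouse, with a line joining the arrays of a mouse; filled circles are KO mice and open squares WT mice (3 each). All 3 KO mice have Mms22l at 7.15 or below in HSC, against 8.18 or above in MPP, while WT mouse 3 has more in HSC (8.59) than in MPP (8.13).

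**Figure D4:**
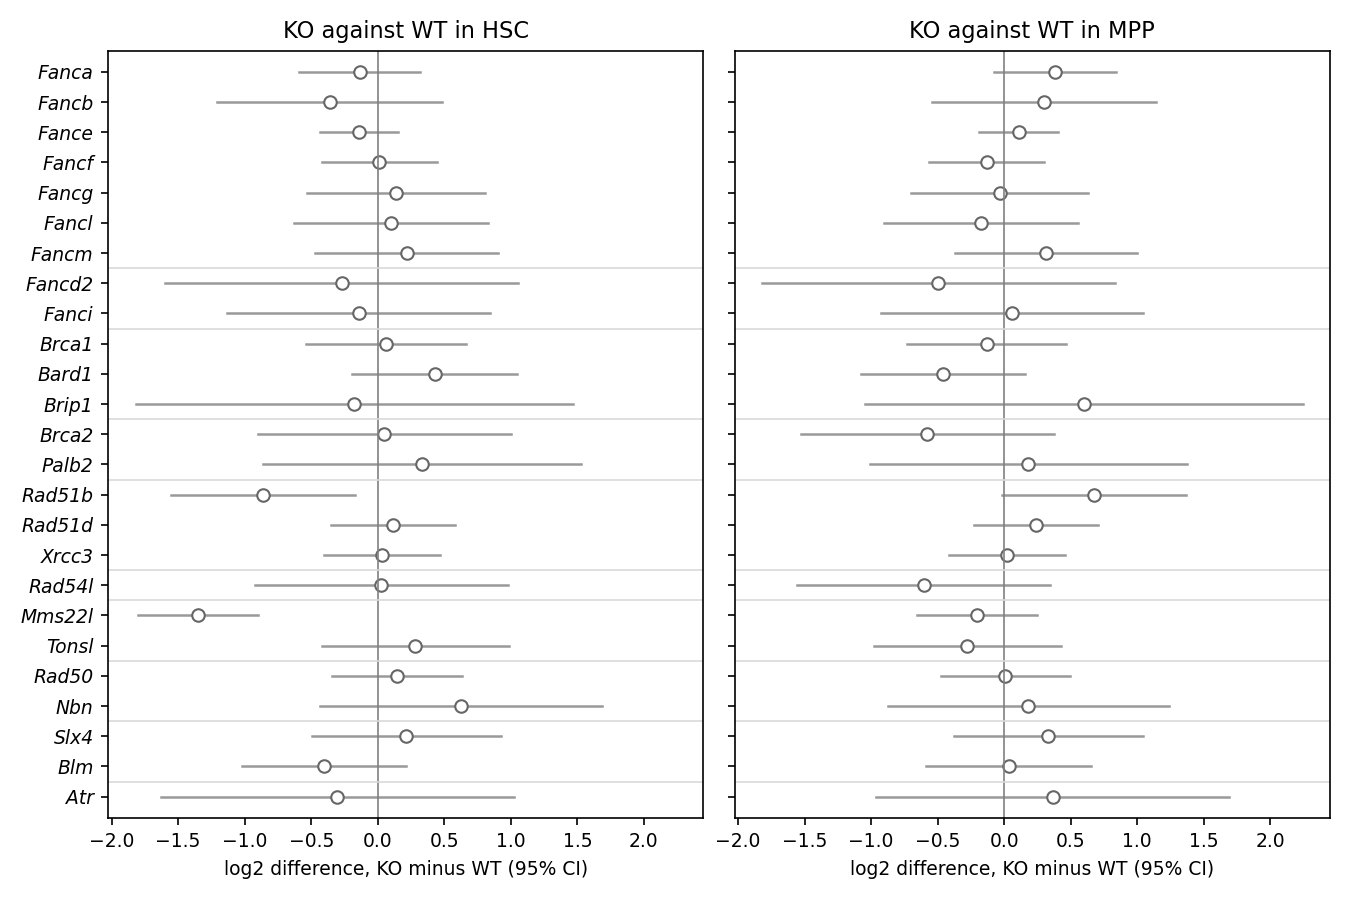
Log2 difference in signal (KO minus WT) of the 25 members in HSC (left) and MPP (right), in the order of roles used above; points are limma estimates from 3 against 3 arrays and bars their unadjusted 95% confidence intervals. Open points mark that no member passed; Mms22l (-1.35) and Rad51b (-0.86) in HSC are the members whose interval excludes 0.

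When the arrays of each mouse were averaged, 0 of 25 members and 0 of all genes passed by limma, and 1 of 25 had an unadjusted p under 0.05, against 650 genes or 4.45%. That member was Mms22l, with -0.78 (SE 0.13, unadjusted p = 0.000552, adjusted p = 0.897). The next were Brca2, with -0.26 (95% confidence interval -0.61 to 0.083), and Fancm, with 0.26 (-0.22 to 0.75). The core complex genes had KO minus WT differences of -0.36 to 0.22 in HSC and of -0.17 to 0.38 in MPP, the highest being that of Fanca in MPP (SE 0.21). In the fits within HSC and within MPP, the unadjusted 95% confidence intervals of single members between KO and WT reached 0.29 to 1.64 on either side of the estimate, and in the fit on mouse means 0.265 to 0.984. The members also varied more between replicates than most genes. Their median SD within groups was 0.416, against 0.286 over all genes tested, and 18 of 25 lay above 0.286.

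Genes around the members were set beside them in the same comparison of HSC with MPP. Over all 14620 genes, 2.92% were called lower in HSC and 1.93% higher, and each list below is set against these shares. Of 26 other homologous recombination genes tested, 3 were lower in HSC and 0 higher. They were Gen1, a resolvase of crossed strands (-2.36, SE 0.23, adjusted p = 0.000213), Rpa2, a subunit of the protein that coats single strands (-1.49, SE 0.23, adjusted p = 0.00403), and Exo1, an end-resecting nuclease (-1.50, SE 0.25, adjusted p = 0.00531). Of 18 other Fanconi pathway genes, 1 was lower, Cenps, which binds FANCM (-1.25, SE 0.24, adjusted p = 0.0141). Of 12 checkpoint genes around ATR, 3 were lower: Clspn (-1.22), Tipin (-0.62) and Topbp1 (-0.96), adaptors and activators of that kinase. Of 10 end joining genes, which repair breaks without a template, 1 was lower, Xrcc6 (-0.85), the gene of the Ku70 end-binding protein. The medians were -0.55, -0.31, -0.48 and -0.31 in these 4 lists in the same order, beside -0.53 for the members and 0.047 over all genes. The 1 call among 18 genes and the 1 call among 10 are single genes and do not describe their lists.

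Genes of DNA replication and mitosis were called lower in HSC as well. Over all genes, 2.92% were called lower and 1.93% higher, 42.8% had a difference below 0 and the median was 0.047. Of 32 DNA replication genes, 9 were lower in HSC, 0 were higher, 32 had a difference below 0, and the median was -0.64. Those with the lowest p were Mcm4 (-1.20) and Mcm5 (-1.25), of the replicative helicase, Rrm2 (-1.45), which makes DNA building blocks, and Pola2 (-0.94), of the primase complex. Of 25 mitosis genes, 16 were lower, 0 were higher and the median was -0.97, with Kif23 (-1.53), Ccnb2 (-0.72), Cenpe (-1.08) and Top2a (-1.37) at the lowest p. Within WT, 2 of 32 replication and 6 of 25 mitosis genes were lower in HSC, against 1.32% of all genes, with medians of -0.62 and -1.03. Within KO, 1 of 32 and 0 of 25 were lower, against 0.739% of all genes, with medians of -0.53 and -0.88. Averaged over its tested genes, the DNA replication list had a mean signal of 7.75 to 7.79 in KO HSC and 7.51 to 7.75 in WT HSC, against 8.22 to 8.44 in KO MPP and 8.37 to 8.42 in WT MPP. The members' mean signal was 6.58 to 6.75 in KO HSC and 6.66 to 6.88 in WT HSC, against 7.31 to 7.46 in KO MPP and 7.09 to 7.50 in WT MPP. Neither the replication list nor the members' mean overlapped between HSC and MPP arrays. The part of replicating cells in the members' lower signal was not tested.

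**Figure D5:**
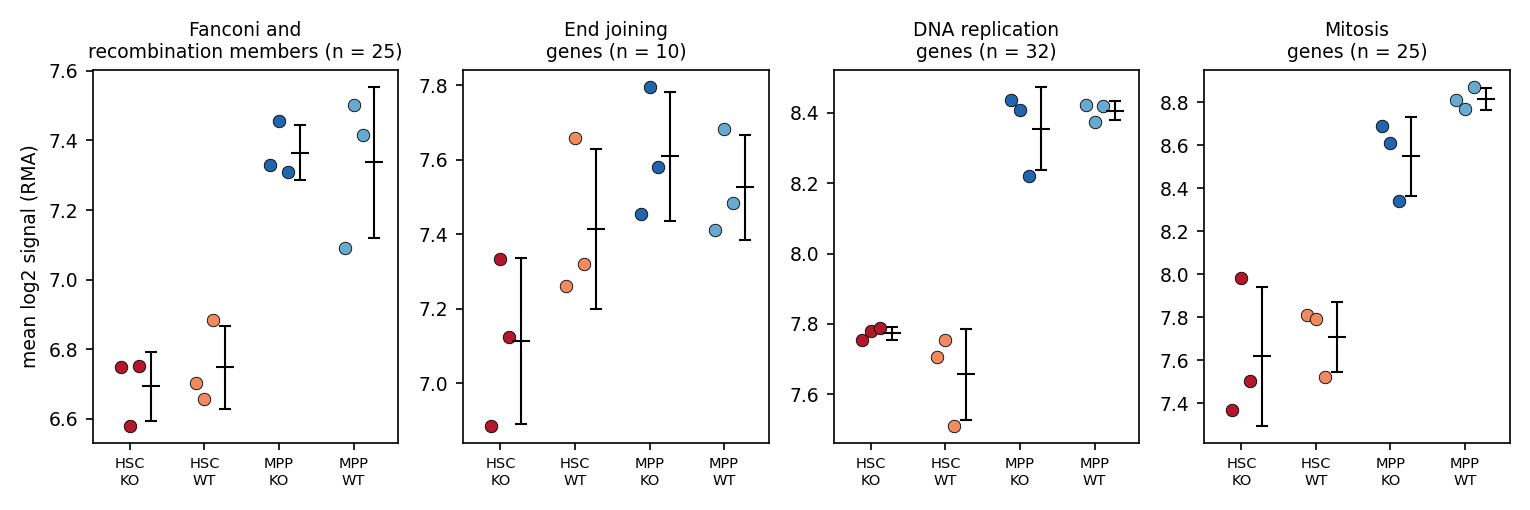
Mean log2 signal (RMA) per array over the tested genes of the 25 Fanconi and recombination members, 10 end joining genes, 32 DNA replication genes and 25 mitosis genes, in KO HSC, WT HSC, KO MPP and WT MPP; points are arrays and bars give the mean and SD of 3 arrays. The members' mean is 6.58 to 6.88 on HSC arrays, against 7.09 to 7.50 on MPP arrays.

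Some markers of other cell types were lower in HSC, and others gave no call. Over all genes, 2.92% were called lower in HSC and 1.93% higher, and 19.6% had an unadjusted p under 0.05. Of 6 monocyte and macrophage markers, 3 were lower in HSC (Ccr2, Ly6c2 and Csf1r). Ccr2 had a mean signal of 4.42 over the HSC arrays, below the filter value, so it passed the filter only through MPP. The mean signal of the 6 markers, with Ccr2 included, was 5.39 to 5.93 in KO HSC and 5.41 to 6.06 in WT HSC. It was 6.50 to 7.05 in KO MPP and 6.36 to 6.55 in WT MPP. Of 4 B cell markers, 2 were lower in HSC (Cd79a and Ebf1), while Ms4a1, a marker of mature B cells that lay below the filter, had 4.79 to 4.99 in HSC and 4.53 to 5.05 in MPP. Of 2 T and NK cell markers tested, 1 was lower in HSC (Nkg7). The other, the T cell gene Cd3e, had signals of 5.03 to 5.71 in HSC and of 5.10 to 5.50 in MPP. The T cell genes Cd3d and Cd3g lay below the filter, with signals of at most 4.90 and 3.82 on any array. Of 9 mature neutrophil markers, 0 passed by limma and 0 had an unadjusted p under 0.05, but their mean signal was uneven within groups, at 5.81 to 7.97 in KO HSC and 6.05 to 7.95 in WT HSC, against 6.04 to 6.89 in KO MPP and 4.996 to 7.10 in WT MPP. Of 4 erythroid markers, 0 passed by limma and 1 had an unadjusted p under 0.05 (Epor, higher in HSC), and of 3 endothelial and stromal markers tested, 1 was lower in HSC (Pecam1). The part of these cells in the members' values was not tested.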

How the data were processed

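RNA of HSC and MPP from 3 KO and 3 WT mice was profiled on 12 arrays. NuGEN kits amplified and labelled 300 pg of RNA from each sample, per the labels' protocols. The authors deposited a log2 intensity for each probe set, made with RMA per the submitters' processing notes. These notes also name limma, and tool versions are not given in the sources. RMA sets all arrays to 1 distribution, so a shift of the whole transcriptome would be removed. Separately, array signals compress differences of weak genes. Amplification from so little RNA adds noise to weak transcripts.

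Of 22142 probe sets, 19527 had 1 gene symbol, 0 several and 2615 none. The probe set with the highest mean was kept per gene (33 genes had several), and the lowest 25% of genes by mean over 12 arrays (below 4.96) were left out. A limma model of 4 group means (R 4.3.3, limma 3.58.1, statmod 1.5.0) gave moderated two-sided p-values, adjusted over 14620 genes by Benjamini-Hochberg at a threshold of 0.05. KO and WT mice were also compared on the mean of their HSC and MPP arrays. The code was tested on simulated data.

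The members and lists were chosen with earlier results of these data known. The text gives all members by role, in full those that passed or had 1 of the 3 lowest p in a comparison, and up to 4 genes of each other list with the lowest p. HSC and MPP arrays pair by mouse, as the labels give the animal. Deviations from group means correlated within mice by 0.032 to 0.091 across genes, and 4 of 12 arrays correlated best with their partner. Alternatives were other filters, probe set means, a second quantile normalization, variance moderation, array weights, the arrays compared alone, mice left out, 1 HSC array left out and the mouse as a block. Promoter windows are RefSeq's (GRCm38.p6).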

Additional observations from a re-analysis of the deposited data

How the results depend on the processing

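Each result of the members was recomputed under the alternatives named above, and no called difference changed direction. For HSC against MPP over both genotypes, where 7 members were lower, the count was 2 to 8 when a mouse was left out and the median was -0.63 to -0.39. Other settings gave 5 to 8, against 2.1% to 4.17% of all genes called lower. Without a mouse, 1.53% to 2.18% of all genes were called lower. The 8 with no filter added Rad51c, the 8 with array weights added Brip1, the 6 with a filter at 50% lacked Fancd2, which that filter removed before testing, and the 6 after a second quantile normalization lacked Mms22l. For HSC against MPP in WT, the count of 2 was 0 to 2 without a mouse, 1 with the arrays compared alone (Brca1) and 0 with the mouse as a block. Over all genes, 0.308% to 1.33% were called lower without a mouse, 1.09% with the arrays alone and 0.725% with the block. The median of -0.23 was -0.43 with array weights and -0.45 to -0.20 without a mouse. For HSC against MPP in KO, the count of 3 was 1 to 3 without a mouse and 1 with the mouse as a block. Over all genes, 0.233% to 0.698% were called lower without a mouse and 0.451% with the block. Fancd2, which passed the filter only through MPP, is in several counts over both genotypes. It is also in the WT and KO counts without mouse 70. The members' median of -0.51 was -0.65 to -0.44 without a mouse. Brca1 in KO did not pass under 12 of 15 alternatives. For KO against WT, 0 members passed under all alternatives. Its median without a mouse was -0.12 to 0.12 in HSC and -0.13 to 0.064 in MPP. The adjusted p of Mms22l in HSC ranged over 0.233 to 0.763. The mouse as a block changed no call other than those given above. The cause of these changes was not tested, and leaving out a mouse also leaves fewer arrays in the fit.

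Fancd2 and Rad51b in HSC, and Rad51c and Fancc, had signals near or below the filter value. So did Tonsl (lowest signal 4.83 in HSC and 4.71 in MPP) and Palb2 (4.87 in HSC and 4.63 in MPP). Fancb, Fancm and Atr had lowest signals of 4.98, 4.96 and 5.02 in HSC. Detection calls were not used here.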

Other observations

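Aldehydes made by metabolism are a source of the crosslinks that the Fanconi pathway repairs, so 6 aldehyde detoxification genes were looked at beside the members. Aldh1a1, an aldehyde dehydrogenase that makes retinoic acid, was higher in HSC than in MPP, with a log2 difference of 2.55 (SE 0.30, adjusted p = 0.000738, limma), and its groups did not overlap. It had signals of 7.61, 8.03 and 7.74 in KO HSC and 7.18, 8.51 and 8.14 in WT HSC, against 5.29, 5.12 and 5.05 in KO MPP and 6.47, 5.31 and 4.68 in WT MPP. The other genes of this list did not pass, and 1.93% of all genes were called higher in HSC. Aldh2, the mitochondrial dehydrogenase, had -0.11 (95% confidence interval -0.54 to 0.33), and Adh5, which clears formaldehyde, had 0.27 (0.038 to 0.51, adjusted p = 0.188).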
